A study of Mus musculus with 12 samples.

Results

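The comparison set Cre-negative mouse embryonic fibroblasts given 4-hydroxytamoxifen (4-OHT) against the same cells given ethanol, the solvent in which the drug is added. The members are every gene in 4 of the 12 libraries of the series: 4-OHT libraries 5 and 6 and ethanol libraries 9 and 10, numbered as in their titles. Of 47517 gene symbols in the table, 17609 had enough counts to be tested. The cells of every library were C57BL/6 embryonic fibroblasts that SV40 large T antigen had immortalised, with both alleles of Ssb1 (gene symbol Nabp2) and of Ssb2 (Nabp1) floxed (Ssb1 Fl/Fl; Ssb2 Fl/Fl). The 4-OHT group was Cre -ve and was treated for 5 days; the ethanol group had the same genotype and the same 5 days of vehicle; untreated libraries 1 and 2 of the same genotype served as a second baseline. Cre-positive cells of the series carried RosaCreERT2, a Cre recombinase fused to a tamoxifen-binding oestrogen receptor domain and driven from the Rosa locus. They have the same floxed alleles and the same 3 treatments, with 2 libraries a group. No dose of the drug was found in the labels. Nor do they tell whether both libraries of a group are separate cultures, and the p-values cover only a spread that could be technical.

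4-OHT is the active metabolite of tamoxifen. It binds the oestrogen receptors, acting as an antagonist or a partial agonist by tissue, and in inducible systems it moves CreERT2 into the nucleus, where Cre cuts loxP sites. Cells without Cre have no recombinase for it to release, so the comparison asks what the drug itself does to RNA levels. Tamoxifen and its metabolites are also known to bind proteins of sterol metabolism and the aryl hydrocarbon receptor, and they are weak bases that can collect in lysosomes. SV40 large T antigen binds and blocks p53 and the retinoblastoma protein, so responses that run through these proteins are altered in every group.

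Neither floxed gene was lower in the 4-OHT libraries than in both other groups. Nabp2 had 31.2 and 28.2 CPM (counts scaled to library size by the trimmed mean of M values) with 4-OHT, against 26.2 and 26.4 with ethanol and 27.1 and 27.0 untreated. Nabp1 had 26.3 and 25.7 CPM with 4-OHT, against 26.5 and 24.5 with ethanol and 27.5 and 25.2 untreated. Neither difference from ethanol passed the test, with log2 differences of 0.17 (adjusted p = 0.177) for Nabp2 and 0.03 (adjusted p = 0.883) for Nabp1. Library totals were 22440851 and 30078313 counts with 4-OHT, against 25316562 and 28566937 with ethanol and 22470388 and 27813387 untreated, so 1 count was 0.0330 to 0.0442 CPM. The 10 fibroblast marker genes summed to 5928 and 5658 CPM in 4-OHT libraries, against 5292 and 5474 CPM in ethanol libraries. Sums of the marker lists of epithelial, haematopoietic, endothelial and skeletal muscle cells were between 0.659 and 13.2 CPM in these 4 libraries, that of neural genes between 167 and 182, and that of cartilage and adipocyte genes between 54.3 and 60.5. Mitochondrial genome transcripts made up 2.22% and 2.00% of counts with 4-OHT, against 1.95% and 1.90% with ethanol and 1.69% and 1.62% untreated.

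Many genes differed between the 4-OHT and the ethanol libraries, most of them by small amounts. Of the 17609 genes tested, 1054 (5.99%) passed an adjusted p of 0.05 in edgeR's quasi-likelihood test, with Benjamini-Hochberg adjustment over all genes. Levels were higher with 4-OHT for 587 genes (3.33%) and lower for 467 (2.65%). The median absolute log2 change of these genes was 0.254. Only 26 changed by 2-fold or more, 13 in each direction, and 38 higher and 53 lower genes changed by 1.5-fold or more. A test for a change beyond 1.2-fold left 33 genes. A rule, given below, that asked for a difference from both ethanol and untreated libraries left 163. The CPM of the groups did not overlap for any of the 1054 genes, but they also did not overlap for 8972 (51%) of all genes tested. With total counts in place of the scaling factors, 468 genes were higher and 648 lower, so the share of higher genes was 41.9% instead of 55.7%. Leaving out 1 of the 4 libraries left 301 calls without 4-OHT library 5, 609 without 4-OHT library 6, 442 without ethanol library 9 and 344 without ethanol library 10.

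**Figure D1:**
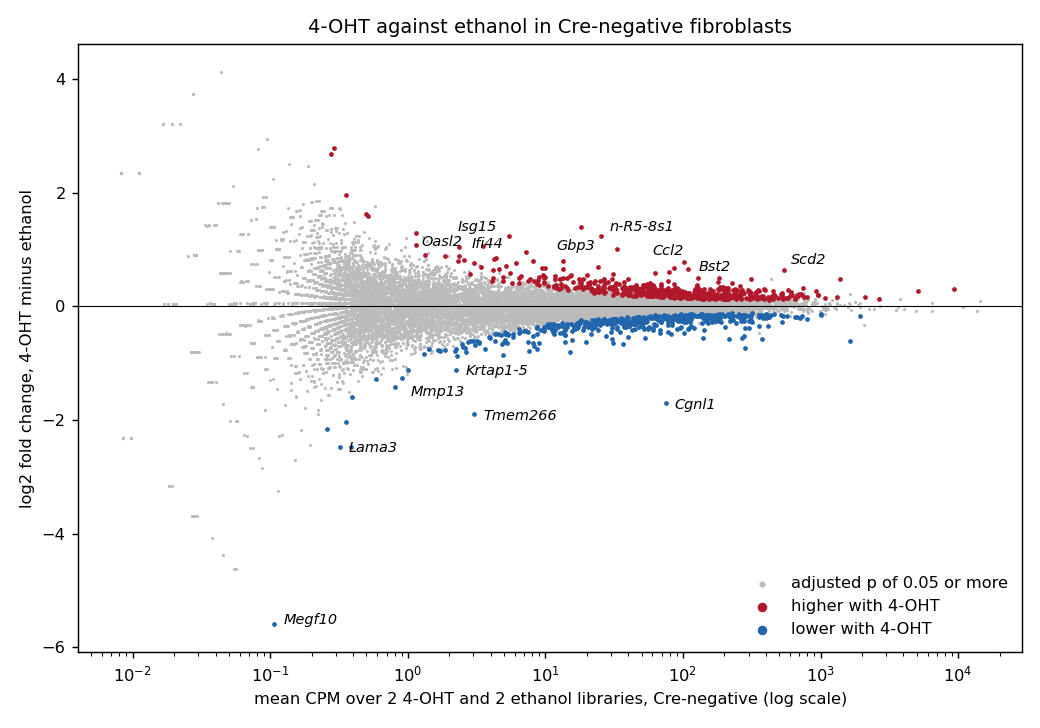
Each point is 1 tested gene in Cre-negative cells, with mean CPM over the 4 compared libraries on a log axis and the log2 fold change of 4-OHT minus ethanol on the vertical axis; red and blue mark the 587 higher and 467 lower genes. Most coloured points lie close to 0, and Cgnl1 and Tmem266 stand far below it at well-measured levels.

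Many interferon-stimulated genes were higher with 4-OHT than with ethanol and than in untreated cells. These genes code for antiviral effectors and sensors, and are switched on by transcription factors of the STAT and IRF families. Of 34 tested members, 16 rose and none fell, against 3.33% of all genes that were higher, and 32 of the 34 had a log2 change above 0. The list's median log2 change was 0.37, and the median of all genes was 0.00185. Summed over the list, the level was 1031 and 1019 CPM with 4-OHT, against 789.7 and 844 with ethanol and 439 and 436 untreated. Without ethanol library 9, the number that rose was 9, and it was 11 to 14 when any other was left out.

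Isg15, a ubiquitin-like protein that is attached to other proteins during antiviral responses, had 8.08 and 7.13 CPM with 4-OHT, against 2.83 and 3.56 with ethanol and 0.485 and 0.359 untreated. Both 4-OHT libraries lay above every other Cre-negative library. It rose 2.35-fold over ethanol (log2 1.23 ± 0.169 SE, adjusted p = 0.000131). Ifi44, an interferon-induced protein, had 9.54 and 9.48 CPM with 4-OHT, against 5.08 and 4.68 with ethanol and 0.441 and 0.717 untreated (log2 over ethanol 0.96, adjusted p = 0.00036). Gbp3, a guanylate-binding GTPase of host defence, had 18.2 and 16.1 CPM with 4-OHT, against 9.66 and 10.0 with ethanol and 1.37 and 1.72 untreated (log2 0.79, adjusted p = 9.14e-05). The same order of the 3 groups, with no overlap, held for each of these genes.

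Bst2 (tetherin), which holds budding virus at the cell surface, had 135 and 129 CPM with 4-OHT, against 77.2 and 90.4 with ethanol and 28.8 and 32.1 untreated (log2 0.65, adjusted p = 0.000112). Ifitm3, a membrane protein that blocks virus entry, had 96.5 and 94.8 CPM with 4-OHT, against 59.8 and 65.4 with ethanol and 31.4 and 31.9 untreated (log2 0.61 ± 0.0488 SE, adjusted p = 1.58e-07). Both genes again stepped up between untreated, ethanol and 4-OHT libraries without overlap. Xaf1, which binds the apoptosis inhibitor XIAP, rose by log2 0.67 (adjusted p = 0.000909), Apol9b by 0.65 (adjusted p = 0.000131) and Ifi27l2a by 1.05 (adjusted p = 0.00166). Oasl2, of the 2'-5' oligoadenylate synthetase family, rose by log2 1.06 and Rtp4 by 0.68, but both calls were lost without 4-OHT library 5 or ethanol library 9, where adjusted p reached 0.0916 for Oasl2 and 0.0866 for Rtp4. The RNA sensors Ddx58 (RIG-I) and Ifih1 (MDA5) rose by log2 0.32 and 0.56, and the kinase Eif2ak2 (PKR) by 0.22. Members that did not pass included Stat2 (log2 0.10), Irf9 (0.12), Irf7 (0.42) and Tap1 (-0.03). Ifit1, Ifit3 and Ifit3b, and Oasl1 and Oasl2, are close relatives, and reads that fit more than 1 of them are divided by the counting program's estimate.

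Promoter sequence is shown for 4 of the genes that rose, because genes of this kind are known to share a motif through which STAT and IRF factors bind. The interferon-stimulated response element was searched as GAAA followed by any 2 bases and a second GAAA, on both strands, in RefSeq windows (GRCm38.p6) that run from 250 bases before to 50 bases after the start of each gene. Matches can overlap each other, so neighbouring matches may be 1 element. Capitals mark the matches. The table holds a second Gbp3 window, which starts at 142560106 and had no match, and a gene was counted as holding the motif where any of its windows did.
Isg15 promoter (chr4:156200769-156201068, minus strand): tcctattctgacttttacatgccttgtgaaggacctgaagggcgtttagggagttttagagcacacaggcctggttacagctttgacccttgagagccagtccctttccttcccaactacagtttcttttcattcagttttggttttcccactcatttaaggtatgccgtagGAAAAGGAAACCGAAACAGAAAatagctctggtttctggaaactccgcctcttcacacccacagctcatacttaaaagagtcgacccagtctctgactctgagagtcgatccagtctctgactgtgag
Gbp3 promoter (chr3:142559794-142560093, plus strand): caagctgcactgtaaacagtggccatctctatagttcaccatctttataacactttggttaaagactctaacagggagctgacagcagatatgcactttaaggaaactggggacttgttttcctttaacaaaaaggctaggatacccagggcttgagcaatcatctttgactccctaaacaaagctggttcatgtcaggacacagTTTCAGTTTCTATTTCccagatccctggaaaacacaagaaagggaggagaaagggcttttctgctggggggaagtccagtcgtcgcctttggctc
Bst2 promoter (chr8:71537423-71537722, minus strand): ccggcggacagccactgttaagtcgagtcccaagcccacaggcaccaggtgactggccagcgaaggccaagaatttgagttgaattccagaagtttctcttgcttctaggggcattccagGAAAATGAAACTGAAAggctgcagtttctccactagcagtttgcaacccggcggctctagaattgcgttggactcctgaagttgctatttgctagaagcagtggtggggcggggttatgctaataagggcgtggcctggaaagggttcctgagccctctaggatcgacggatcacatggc
Ifitm3 promoter (chr7:141010695-141010994, minus strand): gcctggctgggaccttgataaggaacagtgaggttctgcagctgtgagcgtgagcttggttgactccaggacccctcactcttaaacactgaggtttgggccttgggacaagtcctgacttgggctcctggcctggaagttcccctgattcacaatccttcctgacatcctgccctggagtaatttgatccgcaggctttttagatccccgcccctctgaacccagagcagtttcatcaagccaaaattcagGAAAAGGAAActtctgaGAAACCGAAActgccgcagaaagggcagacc
The motif was in 14 of the 25 tested list members with a promoter in the table (56.0%), and in 373 of the 10409 tested genes with one (3.58%). Among list members, 9 of 13 that rose (69.2%) and 5 of 12 that did not pass (41.7%) held it. A match describes the letters only, and Ifi44, Oasl2 and Xaf1, which rose, had no match in their windows.

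**Figure D2:**
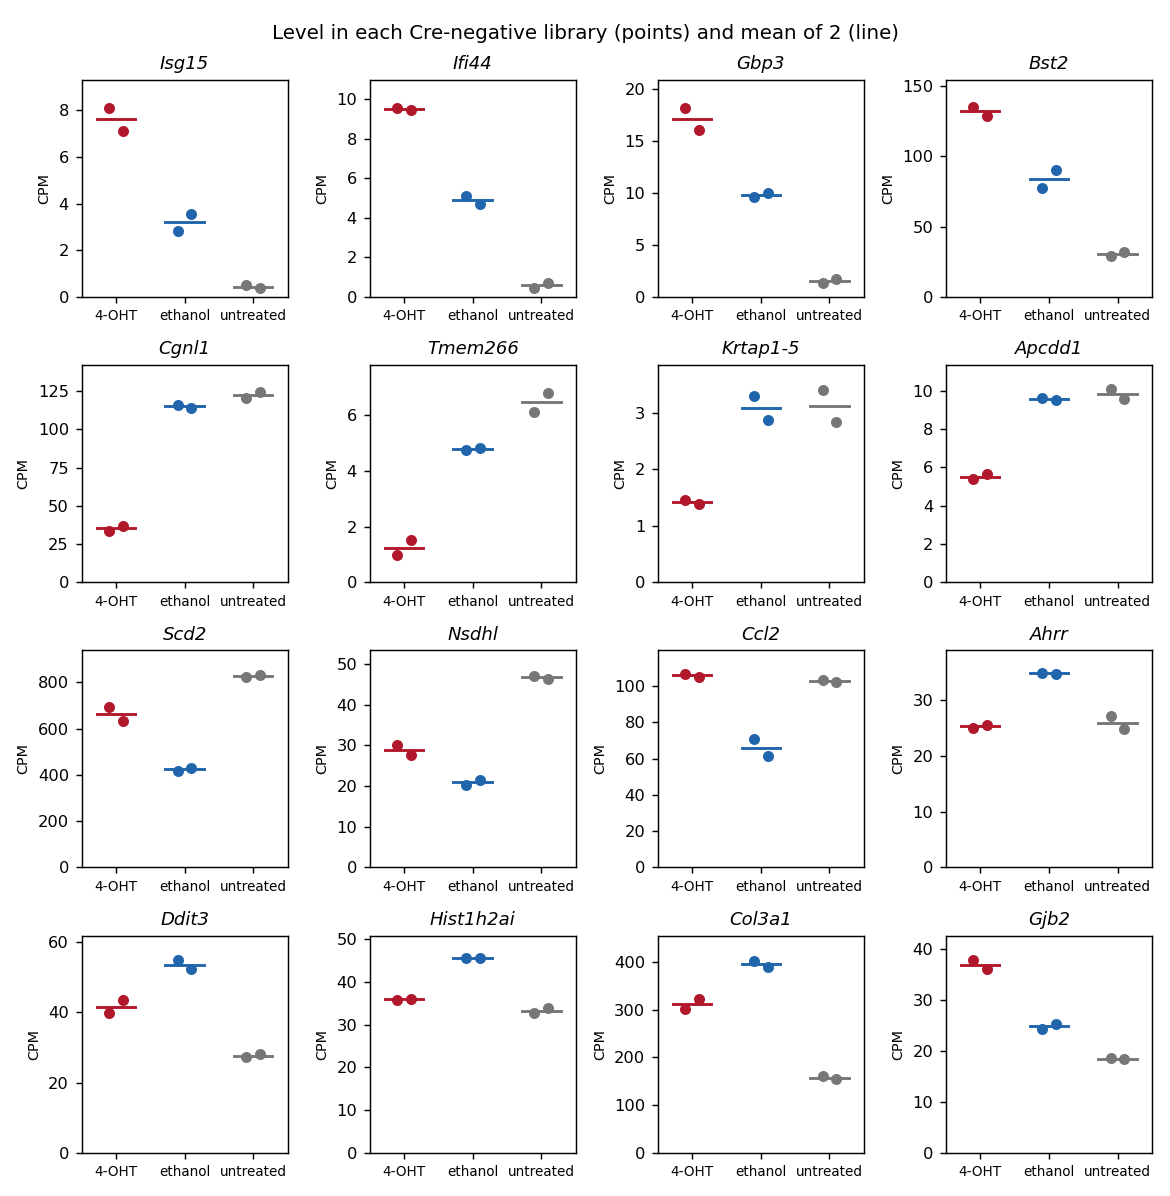
CPM of 16 genes in each Cre-negative library, with 4-OHT in red, ethanol in blue and untreated in grey, and a line at the mean of the 2 libraries of a group; every axis starts at 0. Isg15, Ifi44, Gbp3 and Bst2 step up in the order untreated, ethanol, 4-OHT. Cgnl1 and Tmem266 are lowest with 4-OHT, and Scd2 and Nsdhl with 4-OHT lie between the other groups.

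A small set of genes was lower with 4-OHT than in both other groups. Cgnl1 (paracingulin, a protein of cell junctions) had 33.6 and 36.7 CPM with 4-OHT, against 116 and 114 with ethanol and 121 and 125 untreated. Both 4-OHT libraries lay far below the other 4 Cre-negative libraries, and the libraries within each group lay close together. Its level was 30.6% of that with ethanol (log2 -1.71 ± 0.0496 SE, adjusted p = 1.89e-15, the smallest of all tested genes). The gene lies on chromosome 9 (GRCm38, GENCODE M21, 71626509 to 71771602, minus strand). Tmem266, a transmembrane protein with a voltage-sensor-like domain, had 0.971 and 1.52 CPM with 4-OHT, against 4.77 and 4.82 with ethanol and 6.12 and 6.81 untreated (log2 -1.90, adjusted p = 7.51e-06). It is also on chromosome 9 (55326913 to 55438345, plus strand). Krtap1-5, a keratin-associated protein gene, had 1.46 and 1.39 CPM with 4-OHT, against 3.30 and 2.87 with ethanol and 3.39 and 2.83 untreated (log2 -1.114, adjusted p = 0.00156). Apcdd1, an inhibitor of Wnt signalling, had 5.39 and 5.65 CPM with 4-OHT, against 9.66 and 9.51 with ethanol and 10.1 and 9.57 untreated (log2 -0.79, adjusted p = 0.000473). For Cgnl1, Krtap1-5 and Apcdd1 the ethanol and untreated libraries were near each other, while for Tmem266 the ethanol libraries lay below the untreated ones. For all 4 genes the 4-OHT libraries stood apart below both groups.

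By a rule that asked for a difference of the same sign from ethanol and from untreated, taking the larger p of the pair, 163 genes (0.926%) passed, 93 higher (0.528%) and 70 lower (0.398%). Of the interferon-stimulated list, 13 of 34 were among the higher ones. Gjb2 (connexin 26, a gap junction channel) was higher, with 37.8 and 36.1 CPM with 4-OHT, against 24.4 and 25.2 with ethanol and 18.6 and 18.4 untreated (log2 over ethanol 0.57, adjusted p = 0.000234). Hey1, a Notch target and transcriptional repressor, was also higher, by log2 0.53 over ethanol and 1.01 over untreated. Tmem86a and the feedback inhibitor of EGF receptors Errfi1 were lower, by log2 -0.63 and -0.49 against ethanol and by -0.62 and -0.39 against untreated. So was the growth factor Fgf7, by -0.28 against ethanol and -0.26 against untreated. Sox12 (log2 against ethanol -0.58), Vwa1 (-0.74), Fgf2 (-0.71), Mrgpre (-0.64) and Trp63 (-0.67) passed the rule too, but each lost its call against ethanol without at least 1 library, with adjusted p up to 0.100, 0.118, 0.0969, 0.173 and 0.131 in that order. Each of these lost calls included the fit without 4-OHT library 5, and the rule found 52 genes in that fit. The counts were 68 without ethanol library 9, 79 without ethanol library 10, 97 without 4-OHT library 6, and 101 and 113 without untreated library 1 and 2.

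Some of the largest fitted changes rest on few reads. Megf10, a phagocytic receptor, had no read in either 4-OHT library and 4 and 8 in the ethanol libraries. Against a floor of 3 counts in each library it was at least 1.85-fold lower, and its call was lost whichever of the 4 libraries was left out. Lama3, a laminin chain, had 3 and 2 counts with 4-OHT, against 11 and 19 with ethanol (adjusted p = 0.00911, and up to 0.127 without 4-OHT library 6 or ethanol library 10). Mmp13, a collagenase, had 11 and 17 counts with 4-OHT, against 35 and 35 with ethanol (log2 -1.26, adjusted p = 0.00481, and 0.058 without 4-OHT library 5). Ctbs, a lysosomal chitobiase, had 7 and 11 counts with 4-OHT, against 20 and 26 with ethanol (adjusted p = 0.0255), and no fit without 1 library kept that call. These genes passed the minimum for named genes through their levels in Cre-positive libraries. The 5.8S ribosomal RNA copy n-R5-8s1 was higher, with 36.7 and 34.0 CPM with 4-OHT, against 14.4 and 15.6 with ethanol and 29.1 and 23.8 untreated (log2 1.23, adjusted p = 3.43e-06). Ribosomal RNA is what the library kit removes, and rRNA-like genes made up 1.47% and 1.62% of counts with 4-OHT, against 1.48% and 1.43% with ethanol and 1.53% and 1.97% untreated; the part of the depletion in this difference was not tested.

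Many genes of sterol and fatty acid synthesis were higher with 4-OHT than with ethanol. Of 20 tested genes of cholesterol synthesis, 10 rose and none fell, against 3.33% higher and 2.65% lower among all genes, with a median log2 change of 0.15, and 19 of the 20 were above 0. Of 12 fatty acid synthesis genes, 7 rose and none fell (median 0.21), against the same shares. Against untreated cells, 19 of the 20 cholesterol genes fell with 4-OHT and 19 with ethanol, with medians of -0.67 and -0.88. Those comparisons share the ethanol or untreated libraries, and their backgrounds were 9.14% of all genes lower for 4-OHT against untreated and 12% for ethanol against untreated. The number of cholesterol genes that rose over ethanol was 3 without 4-OHT library 5, 3 without ethanol library 9, 5 without ethanol library 10 and 6 without 4-OHT library 6. For fatty acid synthesis it was 4 without ethanol library 10 and 5 when any other was left out.

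Scd2, a stearoyl-CoA desaturase that makes monounsaturated fatty acids, had 692 and 631 CPM with 4-OHT, against 417 and 431 with ethanol and 823 and 832 untreated. The 3 groups did not overlap, and 4-OHT lay between the others. It rose 1.56-fold over ethanol (log2 0.64 ± 0.0496 SE, adjusted p = 9.81e-08). Nsdhl, a sterol dehydrogenase late in the pathway, had 30.03 and 27.5 CPM with 4-OHT, against 20.3 and 21.5 with ethanol and 47.1 and 46.3 untreated (log2 over ethanol 0.45, adjusted p = 0.000259). Hmgcs1, which makes HMG-CoA at the entry to the pathway, had 276 and 241 CPM with 4-OHT, against 188 and 200.2 with ethanol and 386 and 387 untreated (log2 0.41, adjusted p = 8.27e-05). Stard4, a sterol transfer protein, showed the same order, with a log2 change of 0.30 over ethanol (adjusted p = 0.000223) and -0.52 against untreated. Acsl3 and Elovl6, which activate and elongate fatty acids, rose by log2 0.34 and 0.29. Dhcr7, the last step to cholesterol, rose by log2 0.36, a call that was lost without 4-OHT library 5 or either ethanol library (adjusted p up to 0.15). The regulator Srebf2 (log2 0.05), Insig1 (0.12) and Fasn (0.08) did not pass. The sterol response element, searched as TCACNCCAC on both strands of the same promoter windows, was in 1 of 15 cholesterol genes, Hmgcs1 (6.67%), and in 1.37% of tested genes with a promoter.

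**Figure D3:**
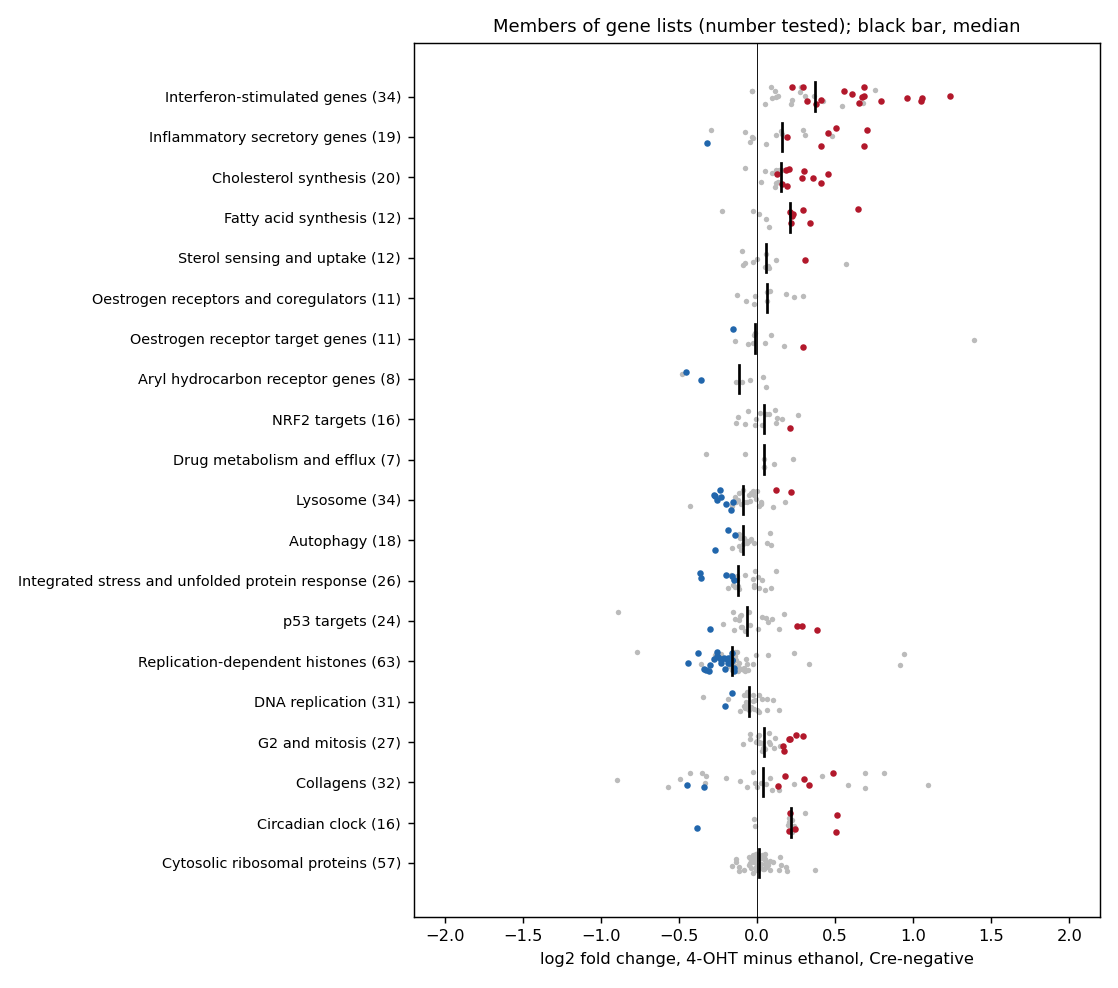
Log2 fold changes of 4-OHT minus ethanol in Cre-negative cells for the tested members of 20 gene lists, with higher genes in red, lower genes in blue, other members in grey and the list's median as a black bar. The medians of the interferon-stimulated and lipid synthesis lists lie to the right of 0 and that of replication-dependent histones to the left; 1 histone and 1 oestrogen-receptor list member with few counts lie outside the axis.

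The chemokines Ccl2, Ccl7 and Cxcl1 were higher with 4-OHT than with ethanol. Of 19 inflammatory secretory genes tested, 6 rose and 1 fell (median log2 0.16), against 3.33% higher and 2.65% lower among all genes. Against untreated cells, 6 of the 19 rose and 1 fell with 4-OHT, against 10.1% higher and 9.14% lower among all genes, and Ccl2, Ccl7 and Cxcl1 did not pass. Ccl2, which attracts monocytes, had 106.5 and 105 CPM with 4-OHT, against 70.6 and 61.5 with ethanol and 103 and 102 untreated (log2 over ethanol 0.68 ± 0.0561 SE, adjusted p = 2.11e-07). The 4-OHT and untreated libraries lay within a few CPM of each other, and both ethanol libraries lay below. Ccl7, its neighbour on chromosome 11, had 30.4 and 28.9 CPM with 4-OHT, against 20.8 and 15.8 with ethanol and 32.5 and 30.1 untreated (log2 0.70, adjusted p = 5.58e-05). Cxcl1, which attracts neutrophils, had 221 and 209 CPM with 4-OHT, against 173 and 130.3 with ethanol and 216 and 212 untreated (log2 0.50, adjusted p = 0.00033). The adhesion molecule Vcam1 rose by log2 0.45, Cxcl5 by 0.41 and the macrophage growth factor Csf1 by 0.19. Tnfaip3 (A20), an inhibitor of NF-kB signalling, fell by 0.32, a call that was lost without 4-OHT library 5 or ethanol library 9 (adjusted p up to 0.0625). The number that rose was 3 without 4-OHT library 6 or ethanol library 10.

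None of 11 oestrogen receptor and coregulator genes passed by edgeR or by DESeq2. Among all 17609 genes, 5.99% passed by edgeR and 745 genes by DESeq2. Of the 11, 2 had an unadjusted edgeR p under 0.05, both higher with 4-OHT. For the lists here, the count among all 17609 genes at that p was 3548, in both directions together. Esr1, the gene of oestrogen receptor alpha, had 11.6 and 12.3 CPM with 4-OHT, against 10.2 and 9.30 with ethanol and 9.78 and 11.1 untreated (log2 over ethanol 0.30, adjusted p = 0.0578). Its 4-OHT libraries lay above the others, but the difference did not pass. Of 11 oestrogen receptor target genes, Ccnd1 (cyclin D1) rose by log2 0.30 (adjusted p = 8.99e-05) and Ctsd (cathepsin D) fell by 0.15 (adjusted p = 0.0281), against 3.33% higher and 2.65% lower among all genes. Ccnd1 had 259 and 256 CPM with 4-OHT, against 206 and 213 with ethanol and 267 and 264 untreated, so the ethanol libraries were lowest and 4-OHT was just under untreated. The call for Ctsd was lost without either 4-OHT library or ethanol library 10 (adjusted p up to 0.222). None of 7 tested genes of drug metabolism and efflux passed by either tool, against 5.99% of all genes by edgeR. Of the 7, 3 had an unadjusted edgeR p under 0.05, 1 higher and 2 lower, against 3548 of all 17609 genes. Of 16 NRF2 targets, the malic enzyme gene Me1 alone passed by edgeR, and rose (log2 0.21, adjusted p = 0.02), close to the 5.99% called among all genes. Its call was lost whichever library was left out, no NRF2 target passed by DESeq2, and 6 higher and 2 lower ones had an unadjusted edgeR p under 0.05.

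Of 8 aryl hydrocarbon receptor genes, Ahrr and Tiparp fell and none rose, against 2.65% lower and 3.33% higher among all genes. Both are induced by the receptor and feed back on it, Ahrr as a repressor and Tiparp as an ADP-ribosyltransferase. Ahrr had 25.04 and 25.5 CPM with 4-OHT, against 34.8 and 34.6 with ethanol and 27.1 and 24.7 untreated (log2 over ethanol -0.46, adjusted p = 0.000128). Tiparp had 180 and 176 CPM with 4-OHT, against 234 and 223 with ethanol and 188 and 193 untreated (log2 -0.36, adjusted p = 7.97e-06). For both genes the ethanol libraries were high and the 4-OHT and untreated libraries close to each other. Both calls held whichever of the 4 libraries was left out. Cyp1b1, a cytochrome P450 regulated by the receptor, did not pass (log2 -0.10, adjusted p = 0.185), and Cyp1a1 had no more than 0.103 CPM in any of the 4 libraries.

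Lysosomal genes leaned lower. Of 34 tested, 8 fell and 2 rose (median log2 -0.09), against 2.65% and 3.33% of all genes. Ctsa, a carboxypeptidase that protects lysosomal sialidase and galactosidase, had 286 and 290.5 CPM with 4-OHT, against 347 and 351 with ethanol and 308 and 309 untreated (log2 over ethanol -0.28, adjusted p = 0.000145). Atp6v0e, a proton pump subunit, had 81.0 and 85.4 CPM with 4-OHT, against 98.6 and 100.1 with ethanol and 105 and 101 untreated (log2 -0.25, adjusted p = 0.00255). Its 4-OHT libraries were below both other groups. Of 18 autophagy genes, 3 fell and none rose, with Gabarap, which coats the growing autophagosome, at log2 -0.19 (adjusted p = 0.00773). The master regulators Tfeb (log2 -0.03) and Tfe3 (0.18) did not pass. Both lysosomal genes that rose, Cd63 and Asah1, lost their calls whichever of the 4 libraries was left out. The number of lysosomal genes that fell was 4 without 4-OHT library 6 or ethanol library 10, 5 without 4-OHT library 5 and 7 without ethanol library 9, and that of autophagy genes was 1 without ethanol library 10.

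Several stress response genes were lower with 4-OHT than with ethanol. Of 26 genes of the integrated stress and unfolded protein responses, 5 fell and none rose by edgeR (median log2 -0.12). Among all genes, 2.65% were lower and 3.33% higher by edgeR. DESeq2 called 4 of the 26 lower and 1 higher, against 322 lower and 423 higher of 17609 genes. The unadjusted edgeR p was under 0.05 for 10 lower and 2 higher members, against 3548 of all 17609 genes in both directions together. Against untreated cells 12 of the 26 rose with 4-OHT and 16 with ethanol, where 10.1% and 12.5% of all genes were higher. Ddit3 (CHOP), a transcription factor of stress-induced cell death, had 39.7 and 43.6 CPM with 4-OHT, against 54.8 and 52.3 with ethanol and 27.2 and 28.1 untreated (log2 over ethanol -0.36, adjusted p = 0.000672). The 4-OHT libraries lay between the other groups, without overlap. Trib3, a pseudokinase target of CHOP, and Atf4, the central activator, fell by 0.37 and 0.20, and both calls were lost without 4-OHT library 5 or ethanol library 9 (adjusted p up to 0.0617 and 0.0575). The number that fell was 1 in each of those fits and 3 without ethanol library 10. The endoplasmic reticulum chaperone Hspa5 (BiP) did not pass (log2 0.05). Of 11 heat shock genes, 2 rose and none fell, against 3.33% higher among all genes. Hsph1, a co-chaperone of HSP70, rose by log2 0.21 (adjusted p = 0.00129), with 189 and 188 CPM with 4-OHT, against 163 and 162 with ethanol and 267 and 278 untreated. Hsp90aa1 rose by 0.14 with a call that no fit without 1 library kept. Of 24 genes in a list of p53 and its targets, 3 rose (Trp53, the gene of p53, and the targets Plk2 and Tnfrsf10b). Only Btg2 fell, again against 3.33% higher and 2.65% lower among all genes. Only the call for Plk2, a polo-like kinase, held whichever of the 4 libraries was left out (log2 0.29, adjusted p = 0.0004). Cdkn1a (log2 -0.10) and Mdm2 (-0.10), the classical targets, did not pass.

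Of 63 tested replication-dependent histone genes, which are expressed in S phase to package new DNA, 27 fell and none rose (median log2 -0.16), against 2.65% of all genes. Their summed level was 10420 and 10910 CPM with 4-OHT, against 12150 and 11470 with ethanol and 9158 and 9316 untreated. Hist1h2ai had 35.9 and 35.97 CPM with 4-OHT, against 45.5 and 45.5 with ethanol and 32.6 and 33.9 untreated (log2 over ethanol -0.34, adjusted p = 0.00135). The 4-OHT libraries lay between the other groups. The number that fell depended on single libraries: it was 7 without 4-OHT library 5, 8 without ethanol library 9, 21 without 4-OHT library 6 and 26 without ethanol library 10. Many of these genes are near-identical copies, and how the authors divided reads between them was not found in the labels. Of 27 genes of G2 and mitosis, 6 rose and none fell (median log2 0.04), against 3.33% higher among all genes; 2 of the 6 were the centromere proteins Cenpf (log2 0.29, adjusted p = 0.000112) and Cenpe (0.25, adjusted p = 0.000402). Cenpf had 332 and 323 CPM with 4-OHT, against 277 and 257 with ethanol and 277 and 288 untreated, so 4-OHT stood above both. The number that rose was 2 without 4-OHT library 5 or ethanol library 10, and 4 without ethanol library 9. Of 31 DNA replication genes, 2 fell and none rose, against 2.65% lower among all genes. They were Pold1 and Mcm2, by 0.21 and 0.16, and neither call was kept without 4-OHT library 5 or ethanol library 10 (adjusted p up to 0.143 and 0.172). With total counts in place of scaling factors, 36 histone genes fell and 5 mitotic genes rose.

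Genes of the extracellular matrix changed in both directions. Of 32 tested collagen genes, 5 rose and 2 fell (median log2 0.04), against 3.33% higher and 2.65% lower among all genes. Col3a1, a fibrillar collagen of skin and vessels, had 302 and 323 CPM with 4-OHT, against 402 and 390.5 with ethanol and 160.2 and 156 untreated (log2 over ethanol -0.34, adjusted p = 0.000144). Col10a1, a collagen of hypertrophic cartilage, had 28.9 and 30.3 CPM with 4-OHT, against 40.8 and 40.3 with ethanol and 22.6 and 23.7 untreated (log2 -0.45, adjusted p = 0.000283). For both genes the 4-OHT libraries lay between the other groups, and both calls held whichever of the 4 libraries was left out. Col1a1, of the main bone and skin collagen, rose by log2 0.49, but its call was lost without 4-OHT library 5 or either ethanol library (adjusted p up to 0.159); no collagen rose without ethanol library 10, and 2 did when any other of the 4 libraries was left out. Timp3, an inhibitor of metalloproteinases bound to the matrix, had 1010 and 1026 CPM with 4-OHT, against 866 and 829 with ethanol and 772 and 764 untreated (log2 0.26, adjusted p = 0.000265). It was above both other groups. Among 17 genes of TGF-beta and BMP signalling, 3 fell and none rose, against 2.65% lower and 3.33% higher among all genes. Id1, a BMP target that blocks basic helix-loop-helix factors, fell by log2 0.38 (adjusted p = 4.53e-05) to the untreated level. It had 104 and 107 CPM with 4-OHT, against 133 and 140.4 with ethanol and 109.1 and 109.5 untreated. Among 12 YAP targets, 1 rose and 3 fell, against the same shares. Nt5e (CD73), an ecto-nucleotidase and YAP target, fell by 0.39 (adjusted p = 0.0004). Its level was 47.2 and 43.6 CPM with 4-OHT, against 61.7 and 57.2 with ethanol and 62.0 and 59.4 untreated.

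Most clock genes had a log2 change above 0 (13 of 16), and growth factor genes were mixed. Of 16 circadian clock genes, 5 rose and 1 fell (median log2 0.22), against 3.33% higher and 2.65% lower among all genes. The repressors Bhlhe40 and Bhlhe41 rose by log2 0.51 and 0.50, Tef by 0.25, and the activator Arntl (BMAL1) fell by 0.39 (adjusted p = 0.00376). Arntl had 14.4 and 13.6 CPM with 4-OHT, against 18.9 and 17.7 with ethanol and 20.6 and 18.9 untreated, lower than both. None of these 4 calls held in every fit without 1 library: adjusted p reached 0.136 for Bhlhe40, 0.307 for Bhlhe41, 0.0858 for Tef and 0.0552 for Arntl, the last without 4-OHT library 6. The number of clock genes that rose was 1 without 4-OHT library 5 or ethanol library 10, 2 without ethanol library 9 and 3 without 4-OHT library 6. Of 24 growth factor and receptor genes, Met and Kitl rose and Fgf2 and Fgf7 fell, against 3.33% higher and 2.65% lower among all genes. Met, the hepatocyte growth factor receptor, rose by log2 0.25 (adjusted p = 0.00139), and its 115 and 110.0 CPM with 4-OHT lay between 96.2 and 92.8 with ethanol and 128 and 126 untreated. Of 9 glucocorticoid receptor targets, Errfi1 and Tsc22d3 fell (log2 -0.49 and -0.37) and none rose, against the same shares, and both calls held whichever of the 4 libraries was left out. A list of 15 genes of the SOSS and Integrator complexes had 2 that rose and none that fell, against the same shares. Its median log2 change was -0.026, and 4 of the 15 were above 0. Ints8, an Integrator subunit, was 1 of the 2 and rose by 0.30 (adjusted p = 0.000909). By edgeR and by DESeq2, no member passed among 57 cytosolic ribosomal protein genes, 26 hypoxia and glycolysis genes and 18 Hox genes. Nor did any pass among 11 mitochondrial mRNAs and 8 RNA polymerase III small RNAs. Among all genes 5.99% passed by edgeR, and 745 of 17609 genes passed by DESeq2. At such shares the shorter of these lists would hold few calls or none. An unadjusted edgeR p under 0.05 was found for 5 higher and 2 lower ribosomal protein genes, 4 higher and 3 lower hypoxia and glycolysis genes, 1 higher and 1 lower Hox gene, 2 higher and 2 lower mitochondrial mRNAs and 2 lower polymerase III RNAs. Such an unadjusted p was found for 3548 of all 17609 genes tested. Of 78 nuclear genes of oxidative phosphorylation, 1 fell by edgeR, against 2.65% lower among all genes. None of the 78 passed by DESeq2, against 745 of 17609 genes.

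The position of the 4-OHT libraries relative to untreated cells depended on the gene group. Against untreated cells, 3388 genes (19.2%) passed with 4-OHT and 4313 (24.5%) with ethanol, both more than the 1054 of 4-OHT against ethanol. With ethanol and untreated libraries as 1 joint baseline, 1733 genes (9.84%) passed, 1004 higher (5.7%) and 729 lower (4.14%). These comparisons share libraries, so they are given side by side and not as independent results. Interferon-stimulated genes had median log2 changes of 0.37 for 4-OHT over ethanol, 2.08 for 4-OHT over untreated and 1.70 for ethanol over untreated; 31 of the 34 rose with 4-OHT over untreated and 30 with ethanol. For replication-dependent histones the medians were -0.16, 0.23 and 0.39 in the same order of comparisons. For cholesterol synthesis they were 0.15, -0.67 and -0.88, and for the integrated stress and unfolded protein responses -0.12, 0.12 and 0.25. G2 and mitosis genes had medians of 0.04, 0.22 and 0.14.

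**Figure D4:**
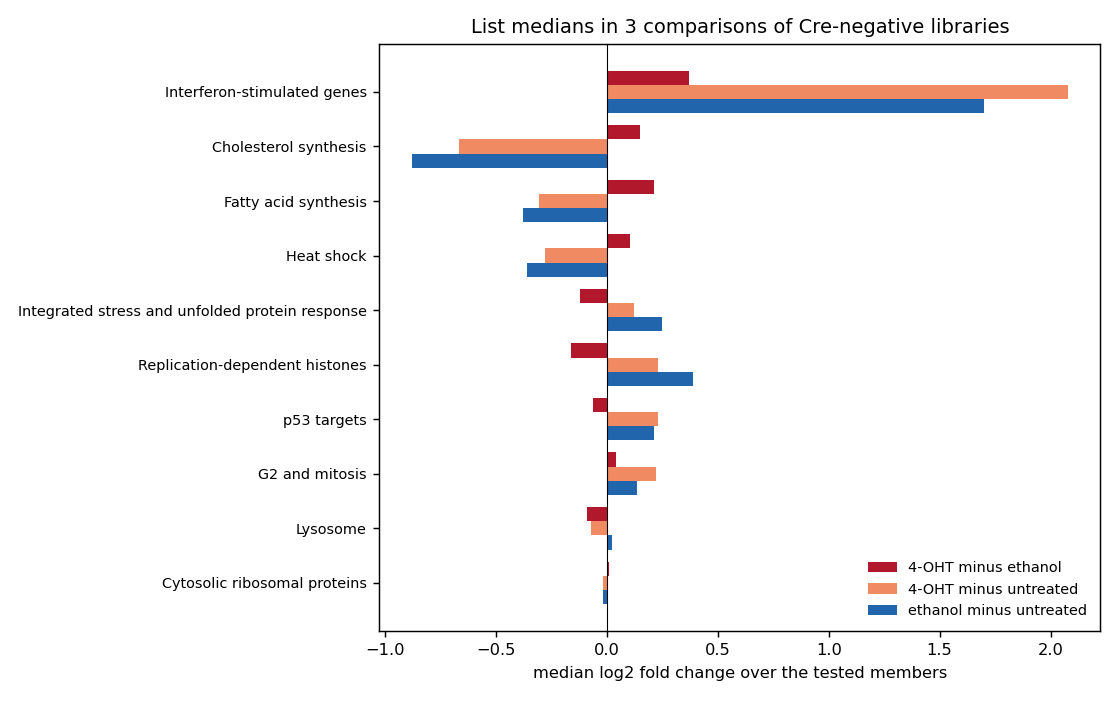
Median log2 fold change over the tested members of 10 gene lists in Cre-negative cells, for 4-OHT minus ethanol, 4-OHT minus untreated and ethanol minus untreated; the 3 comparisons share libraries. Bars for 4-OHT minus ethanol are short in every list shown. In all lists but the interferon-stimulated and the G2 and mitosis genes, they point the other way from the ethanol minus untreated bars. The ethanol libraries enter both comparisons with opposite signs, so opposed bars are favoured by construction.

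In Cre-positive cells 4-OHT also releases Cre, and Nabp2 had 4.84 and 5.09 CPM with 4-OHT, against 19.8 and 22.6 with ethanol. There, 6736 genes (38.3%) passed for 4-OHT against ethanol. The Cre-negative calls were 1054, and 607 of them (57.6%, or 9.01% of the Cre-positive calls) also passed in Cre-positive cells. Of these, 229 changed in the same direction in both genotypes, 136 up and 93 down, and 378 in opposite directions, 196 higher in Cre-negative and lower in Cre-positive cells and 182 the reverse. Across all 17609 genes the log2 changes of the genotypes had a Pearson correlation of -0.0716. That is a description across genes, which are not independent, of effects measured in separate libraries. The difference between the effects, Cre-positive minus Cre-negative, passed for 4987 genes (28.3%), and for 701 of the Cre-negative calls. The Cre-negative effect is itself a term of that difference, so genes called for it pass more often by construction, and those counts are not to be set against each other. Xist was at 502 to 727 CPM in the 6 Cre-negative libraries and at 0.200 to 0.805 CPM in the 6 Cre-positive ones, and the Y-linked gene Eif2s3y at 0 to 0.0661 and 3.15 to 4.95 CPM, so the genotypes are different cell lines and Cre status cannot be told apart from the line.

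Several interferon-stimulated genes rose in both genotypes. Isg15 rose by log2 1.23 in Cre-negative and 1.27 in Cre-positive cells, and the difference of 0.04 did not pass (adjusted p = 0.93). Ifitm3 rose by 0.61 and 0.68, Ifi44 by 0.96 and 1.22 and Gbp3 by 0.79 and 1.113, with no difference passing. Over the list, the difference was higher in Cre-positive cells for 10 of 34 genes and lower for none, against 14.5% and 13.8% of all genes, with a median difference of 0.38 and 32 of 34 above 0. Xaf1, by contrast, rose by 0.67 in Cre-negative and 1.75 in Cre-positive cells, a difference of 1.08 (adjusted p = 0.00013). Cgnl1 fell by 1.71 in Cre-negative cells and by 0.12 in Cre-positive cells, a difference of 1.59 (adjusted p = 2.2e-12). Gjb2 was higher by log2 0.57 in Cre-negative and lower by -1.04 in Cre-positive cells, Ccnd1 changed by 0.30 and -0.74, and Nsdhl by 0.45 and -0.51. Ahrr changed by -0.46 in Cre-negative and 0.66 in Cre-positive cells. Every one of the last 4 differences passed the test.

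**Figure D5:**
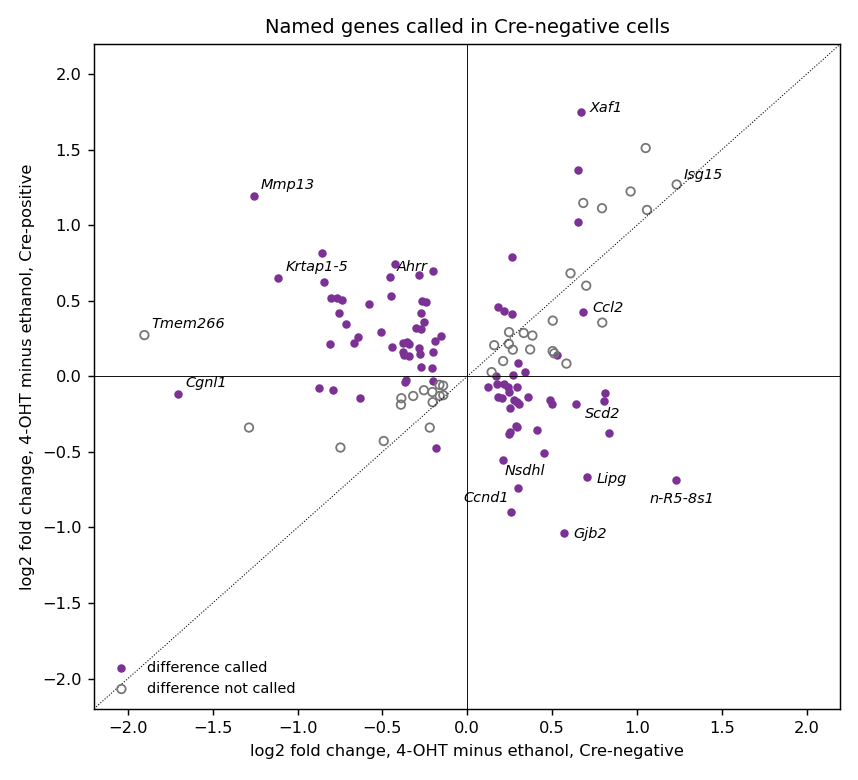
Log2 fold change of 4-OHT minus ethanol in Cre-negative cells (horizontal) and in Cre-positive cells (vertical) for 128 named genes called in Cre-negative cells, with a dotted line where both are equal; 2 low-count genes lie outside the axes. Filled points mark the 91 genes whose difference between genotypes passed the test, which it did for 28.3% of all genes. The plotted genes were picked by their Cre-negative effect, a term of that difference, so they pass more often by construction. Many filled points lie in the upper left or lower right part of the plot.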

How the data were processed

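RNA of immortalised fibroblasts was sequenced in read pairs after removal of ribosomal RNA with a stranded total RNA kit, per the labels' protocols. The deposited values are expected counts per gene symbol, which the authors made with cutadapt 1.11, STAR 2.5.2a and RSEM 1.2.30 on GRCm38, per the submitters' processing notes; the notes also name edgeR, with no version. The sources used here name no annotation, strand setting or filter. The table held whole numbers, so no rounding was needed, and its 12 columns are the 12 libraries. Reads that fit several genes are shared out by RSEM's estimate, which makes near-identical copies uncertain.

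The tests ran in edgeR 4.0.16 under R 4.3.3. Low counts were filtered with filterByExpr, libraries were scaled by the trimmed mean of M values, and a quasi-likelihood model with 1 mean for each of 6 groups was fitted to all 12 libraries, so that all groups share the estimate of spread (6 residual degrees of freedom, biological coefficient of variation 3.44%). Tests were 2-sided, with Benjamini-Hochberg adjustment over all genes tested and a threshold of 0.05. The rule on both baselines took the larger p of the tests against ethanol and against untreated where the signs were equal. Genes to name were, in each direction, the 15 called genes with the largest change and no overlap of libraries, and the 10 whose smaller change against the 2 baselines was largest (both with an average log2 CPM of at least 1, predicted genes left out), up to 3 called members of each gene list and direction or its member with the smallest p, and the floxed genes. Some genes that the rule names are not reported here. List members are also named by role in the text, with their values, outside that rule. The gene lists and members were chosen with earlier results of these data known.

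Libraries of a group differed by more than sampling noise (chi-square per degree of freedom 2.37, 3.02 and 3.67 in the Cre-negative groups), so none was counted as a copy. That spread could be technical, so it does not show that the libraries came from separate cultures. The biological coefficient of variation, as edgeR names it, bears the same limit. The design had assumed plain counts; the test was the same for expected counts. The script was tested on simulated data. Alternatives were DESeq2 1.42.0, other scaling, filters, baselines and libraries. Coordinates are from GENCODE M21 (GRCm38), in which 45126 of the symbols match 1 gene, and promoters from RefSeq (GRCm38.p6).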

Additional observations from a re-analysis of the deposited data

Results flagged for a closer look

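For 94 named genes reported here the effect of 4-OHT over ethanol differed between the genotypes, by edgeR's quasi-likelihood test of the difference with Benjamini-Hochberg adjustment over all 17609 genes (adjusted p 2.18e-12 to 0.0459). The difference passed for 97 of all 144 named genes and for 28.3% of all genes tested. Most named genes were chosen for their Cre-negative effect, which is itself a term of the difference. They therefore pass more often by construction, and opposite directions are favoured too. Each value here is a log2 difference, the Cre-positive minus the Cre-negative effect. The cells of the 2 genotypes also differed in Xist, so Cre and other differences between the cells cannot be told apart.

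Of these genes, 19 rose with 4-OHT in Cre-negative cells and fell in Cre-positive cells. In these it was -1.92 for n-R5-8s1, -1.37 for Lipg, -1.61 for Gjb2, -1.03 for Ccnd1, -1.15 for Cdk6 and -0.46 for Met. In lipid synthesis and supply it was -0.96 for Nsdhl, -0.77 for Hmgcs1, -0.49 for Stard4, -0.82 for Scd2, -0.62 for Elovl6 and -0.35 for Me1. In mitosis and p53 genes it was -0.47 for Cenpf, -0.35 for Cenpe, -0.77 for Kif23, -0.62 for Plk2 and -0.62 for Tnfrsf10b. Ier2 had -0.44 and Col1a2 -0.31.

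The opposite pattern, lower in Cre-negative and higher in Cre-positive cells, was seen for 28 genes. The difference was 2.45 for Mmp13, 1.77 for Krtap1-5, 1.68 for Adamts8, 1.47 for Des, 1.28 for Itga8 and 1.24 for Vwa1. Values for Klf2, Ahrr, Fgf2 and Sox12 were 1.17, 1.12, 1.06 and 1.06. Lysosomal and autophagy genes had 0.42 for Ctsd, 0.43 for Ctsa, 0.62 for Atp6v0e, 0.77 for Map1lc3a and 0.43 for Gabarap. Col10a1 had 0.99, Fabp4 0.96, Plin4 0.90, Id3 0.74, Id1 0.60, Fgf7 0.59, Smad7 0.37, Col3a1 0.48 and Ctgf 0.47. Stress and histone genes had 0.59 for Ddit3, 0.62 for Btg2, 0.64 for Hist4h4 and 0.56 for Hist1h2ai.

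Unequal rises in both genotypes were found for 8 genes: -0.26 for Ccl2, 1.08 for Xaf1, 0.37 for Bst2, 0.72 for Apol9b, 0.22 for Hsph1, 0.15 for Timp3, 0.28 for Timp1 and 0.53 for Sfrp2. Cgnl1, at 1.59, and Igf2r, at -0.29, fell in both genotypes. A further 16 genes rose in Cre-negative cells and did not pass in Cre-positive cells. These had -1.21 for Hmgn5, -0.92 for Il20rb, -0.97 for S100a11, -0.49 for Dhcr7, -0.31 for Acsl3, -0.26 for Cd63, -0.19 for Asah1 and -0.26 for F3. The rest of them had -0.64 for Col1a1, -0.21 for Col8a1, -0.23 for Fbln2, -0.17 for Tpm1, -0.39 for Hey1, -0.31 for Rnu3a, -0.68 for Ints9 and -0.36 for Ints8.

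Another 17 fell in Cre-negative cells and did not pass in Cre-positive cells. The fitted 5.48 for Megf10 depends on the prior count added to a group with no reads and is no bound, and Lama3 had 2.35. The others were 0.80 for Gcnt2, 1.02 for Nacad, 0.70 for Apcdd1, 1.18 for Cpm, 0.90 for Mrgpre, 0.88 for Trp63 and 0.49 for Tmem86a. Smaller differences were 0.34 for Tiparp, 0.33 for Trib3, 0.17 for Atf4, 0.54 for Hist1h2ad, 0.33 for Cyr61, 0.26 for Tagln, 0.80 for Mmp28 and 0.52 for Tsc22d3. Last, 4 genes did not pass in Cre-negative cells: the floxed Nabp1 and Nabp2, with -2.08 and -2.27, Esr1 with -0.53 and Acta1 with 0.91.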

How the results depend on the processing

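With 2 libraries a group, calls near the threshold were lost or gained with 1 library, and for genes of few counts depth limits what could be detected. The number of calls was 1054, and 745 to 1322 under DESeq2, the fit of the 6 Cre-negative libraries, other scaling, other filters on low counts and removal of mitochondrial and rRNA-like genes. A fit of the 4 compared libraries alone gave 1609 calls, 929 of them higher. Testing for a change beyond 1.2-fold left 33 genes (13 higher, 20 lower), 10 beyond both references and 1436 differences between genotypes. With untreated in place of ethanol, 3388 genes passed (1779 higher, 1609 lower), and with ethanol and untreated as 1 reference 1733 did (1004 higher, 729 lower). Without a filter on low counts, 260 genes passed beyond both references, against 163. Leaving out 1 library gave 301 to 609 calls, 141 to 336 higher and 160 to 273 lower, 52 to 113 genes beyond both references and 3770 to 4929 differences between genotypes; the lone library of a group is then assumed to vary like the others. Filtering on the 4 compared libraries, an alternative chosen after seeing the data, gave 1077 calls.

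Of 130 named genes that passed, 49 kept their call whichever of the 4 libraries was left out. The other 81 lost it without at least 1. None of the 130 changed sign in those fits. The CPM of the groups did not overlap for any called gene, so leaving out 1 library was all but bound to keep the sign. The kept signs are therefore no test of stability. No paired analysis was possible because the numbers in the titles differ in every library and the groups share none.

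Signs turned for some named genes when the baseline changed. Against untreated, the log2 change was positive for Nacad (0.47), Cpm (0.31), Map1lc3a (0.10), Wipi2 (0.093), Trib3 (0.65), Ddit3 (0.59), Atf4 (0.0725), Btg2 (0.38), Pold1 (0.0067), Hist4h4 (0.48), Hist1h2ad (0.12), Hist1h2ai (0.11), Ctgf (0.0752), Id3 (0.14), Col10a1 (0.36), Col3a1 (0.99), Loxl3 (0.21), Tagln (0.92), Mmp28 (0.18), Mmp11 (0.17), Plin4 (0.0223), Ndufa7 (0.13), Tek (1.16) and Acta1 (0.28). It was negative for Nabp1 (-0.017), Hmgn5 (-0.17), S100a11 (-0.0246), Ccl7 (-0.0782), Ccnd1 (-0.0446), Nsdhl (-0.70), Hmgcs1 (-0.58), Dhcr7 (-0.46), Stard4 (-0.52), Scd2 (-0.32), Acsl3 (-0.30), Elovl6 (-0.41), Me1 (-0.072), Asah1 (-0.0364), Hsph1 (-0.53), Hsp90aa1 (-0.19), Plk2 (-0.0488), Tnfrsf10b (-0.0348), Cdk6 (-0.36), Tpm1 (-0.25), Adm (-0.0343), Fth1 (-0.23), Bhlhe40 (-0.21), Met (-0.18), Rnu3a (-0.14), Ints8 (-0.0047), Col1a2 (-0.0045) and Eif2s3y (-0.0591). With ethanol and untreated as 1 reference it turned for Nsdhl (-0.12), Hmgcs1 (-0.0845), Dhcr7 (-0.049), Stard4 (-0.11), Elovl6 (-0.0604), Trib3 (0.14), Ddit3 (0.12), Hsph1 (-0.16), Hsp90aa1 (-0.0254), Btg2 (0.0409), Cdk6 (-0.0505), Hist4h4 (0.0173), Col3a1 (0.32), Tpm1 (-0.0393), Tagln (0.36), Fth1 (-0.033) and Tek (0.28). The cause was not tested. Among genes that did not pass, leaving out 1 library gave -0.0349 (without ethanol library 10) to 0.0715 for Nabp1, -0.37 to 0.0133 (without ethanol library 10) for Cd68, -5.02 to 0.26 for Tek, positive without ethanol library 10 or without 4-OHT library 5 (0.17), and 0 (without 4-OHT library 6) to 3.96 for Eif2s3y; Tek and Eif2s3y rest on a few reads.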

Other observations

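Some genes outside every gene list also stood apart, and the ones given here were chosen after their values were seen. Nov, a secreted matrix protein of the CCN family also called CCN3, had 214 and 217 CPM in Cre-negative 4-OHT libraries, against 318 and 319 CPM in ethanol libraries and 185 and 178 CPM in untreated libraries. Its log2 change against ethanol was -0.56 (edgeR adjusted p 2.10e-08), and the 4-OHT libraries lay between the ethanol and the untreated ones. Enpp2, the secreted enzyme autotaxin that makes lysophosphatidic acid, had 27.9 and 29.2 CPM with 4-OHT, against 44.0 and 46.4 CPM with ethanol and 44.3 and 40.8 CPM untreated. Its log2 change was -0.66 against ethanol (edgeR adjusted p 1.56e-06) and -0.57 against untreated. Lrig1, a membrane protein that limits signalling of growth factor receptors, had 31.4 and 33.2 CPM with 4-OHT, against 45.8 and 47.7 CPM with ethanol and 45.4 and 45.5 CPM untreated. Its log2 change was -0.53 against ethanol (edgeR adjusted p 1.03e-05) and -0.49 against untreated. For Enpp2 and Lrig1 both 4-OHT libraries lay below all 4 others.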
